A study of Homo sapiens with 49 samples.

Results

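The mitochondrial protein import machinery was followed by RNA sequencing through 2 time courses in human neuroblastoma cells. Its genes were taken by name: every entry whose symbol starts with TOMM or TIMM and a digit, plus TIMMDC1, HSPA9, GRPEL1, GRPEL2, DNAJC19, PHB, PHB2, PMPCA, PMPCB, CHCHD4, GFER, MTX1, MTX2 and SAMM50. This gave 37 of the 23621 gene entries in each experiment. In each, 36 of the 37 reached the mean of 1 unnormalised FPKM (fragments per kilobase of transcript, scaled to the mapped fragments of a library) asked of a tested gene, among 11867 tested genes in the first experiment and 11433 in the second. The exception was TOMM20L, a relative of the TOMM20 receptor, which averaged 0.72 unnormalised FPKM at 0 h in the first experiment and 0.20 without doxycycline in the second.

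In the first experiment SHEP-21N cells, a neuroblastoma line with a MYCN gene that doxycycline switches off, received doxycycline at 0.2 µg/ml for 0, 2, 4, 6, 8, 16 or 24 h; the 0 h group had 2 libraries and every other group 3. In the second, BE(2)-C neuroblastoma cells with a tetracycline-inducible hairpin against TWIST1 received doxycycline at 0.5 µg/ml for 3, 6, 12, 24 or 48 h or none, with 3 libraries in each group. TWIST1 is a basic helix-loop-helix transcription factor, as is MYCN. All libraries of an experiment come from 1 engineered line, every treated group had doxycycline and its control none, and the effects of doxycycline itself and of the switched gene cannot be told apart.

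Nearly all mitochondrial proteins are made in the cytosol and must cross 1 or both mitochondrial membranes. Precursors enter through the outer membrane translocase, the TOM complex, and then divide among routes. Those with a cleavable presequence pass the TIM23 complex of the inner membrane, are pulled in by a motor built on the HSP70 chaperone HSPA9 and are trimmed by the processing peptidase. Metabolite carriers are escorted by small TIM chaperones to the TIM22 complex, small cysteine-rich proteins are trapped by the CHCHD4 and GFER disulfide relay, and barrel proteins are assembled into the outer membrane by SAMM50 with the metaxins.

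The targeted genes went the way of the labels. MYCN stood at 723 and 855 FPKM at 0 h on the scale the authors set to spike-in RNA (the spike-in scale), while its 24 h libraries held 17.3, 13.9 and 11.2 FPKM. TWIST1 in BE(2)-C cells stood at 91.8, 70.3 and 82.0 FPKM without doxycycline and between 4.6 and 11.2 FPKM at 48 h. Of 9 adrenergic neuroblastoma markers all 9 were tested in BE(2)-C cells but 3 in SHEP-21N cells, where PHOX2A, TH and DBH were each under 0.2 FPKM in both 0 h libraries. Of 8 mesenchymal markers 7 were tested in SHEP-21N cells and 2 in BE(2)-C cells. Unnormalised gene totals of the libraries ran from 669720 to 952759 FPKM in SHEP-21N cells and from 678816 to 1028218 FPKM in BE(2)-C cells. The highest BE(2)-C total belonged to a library without doxycycline, numbered 1, which stands apart from the other two of its group in many import genes. Read numbers, and so the depth behind each value, are unknown.

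Import genes were well expressed before treatment. In untreated SHEP-21N cells the 36 tested members averaged from 4.52 unnormalised FPKM for GRPEL2, a nucleotide exchange factor of the import motor, to 508 for TOMM5, a small subunit of the TOM complex. TOMM40, the pore of that complex, averaged 248 FPKM, TIMM23, the channel of the inner membrane, 172 FPKM and HSPA9 178 FPKM. In untreated BE(2)-C cells GRPEL2 was again the lowest at 8.47 FPKM, and the highest were HSPA9 at 269, PHB and PHB2, each near 250 FPKM. PHB and PHB2 are the prohibitins, ring-forming proteins of the inner membrane that bind its proteases.

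Most of the machinery fell within 24 h of MYCN shutdown. On the spike-in scale 28 of 36 tested members were lower at 24 h than at 0 h and 0 were higher (limma, Benjamini-Hochberg adjusted p under 0.05), a share of 77.8%, while 32.4% of all tested genes were lower and 6.16% higher. The median change of the 36 was -0.72 on the log2 scale, beside -0.31 for all tested genes. All 36 had a negative estimate, from -1.34 for TIMM10 to -0.04 for GRPEL2. The 28 were also called lower on the unnormalised scale and after each library was centred on its median gene. Among all tested genes centring turned 3848 lower and 731 higher calls into 3823 and 3515, so the split over all genes depends on the scale. For import genes the counts after centring were 29 lower and 2 higher (32.2% and 29.6% of all tested genes). These are bulk libraries, in which fewer cells of a type and less RNA per cell cannot be told apart.

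**Figure D1:**
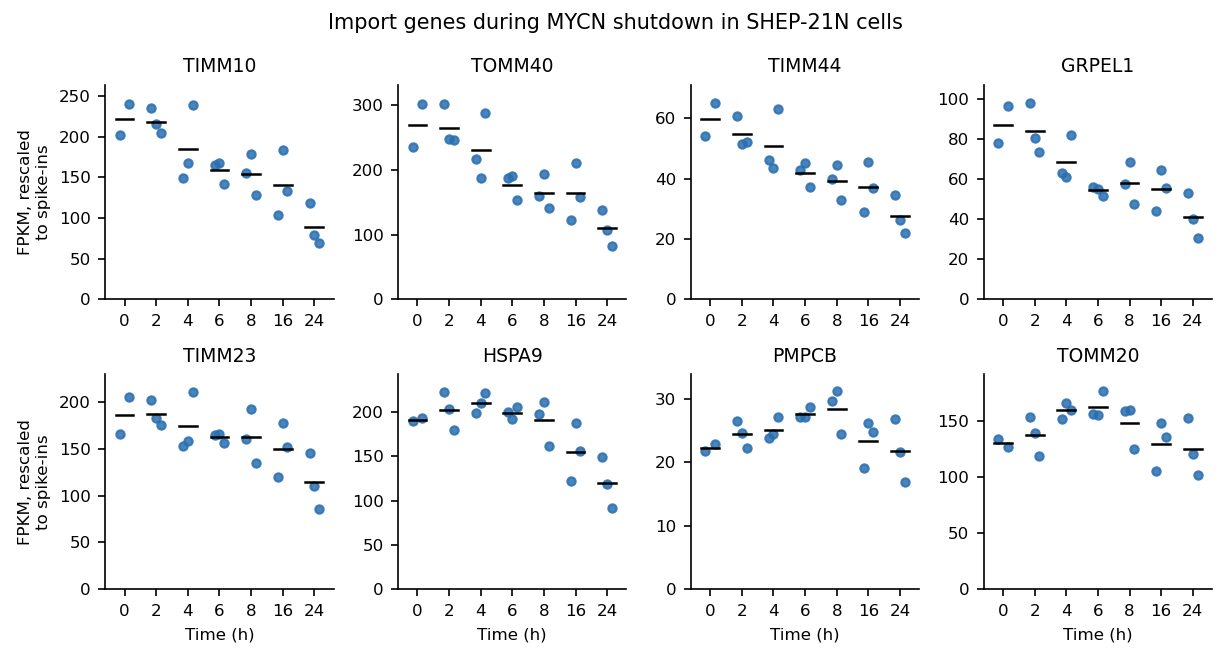
Rescaled FPKM (vertical axis, from 0) of 8 import genes against hours of doxycycline in SHEP-21N cells; each point is a library and each bar the mean of its group. TIMM10, TOMM40, TIMM44 and GRPEL1 have their lowest means at 24 h, while the TOMM20 and PMPCB points at 24 h lie on both sides of those at 0 h.

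The TOM complex changed unevenly. TOMM40 stood at 235 and 302 FPKM at 0 h and at 138, 108 and 82.5 FPKM at 24 h on the spike-in scale. Every 24 h library was below both 0 h libraries, and the change was -1.31 on the log2 scale (SE 0.25, limma adjusted p = 0.00118). TOMM5 fell from 546 ± 66.7 FPKM (SD, n = 2) to 286 ± 98.6 (SD, n = 3; change -0.98, limma adjusted p = 0.00799), and TOMM34, a cytosolic partner of precursors, from 60.9 ± 9.20 to 29.5 ± 6.38 FPKM (change -1.04, SE 0.22, limma adjusted p = 0.00196). TOMM22, TOMM6 and TOMM40L fell too, which made 6 of 9 tested members of this group. TOMM20, the receptor that reads presequences, did not pass: it stood at 134 and 127 FPKM at 0 h and at 153, 120 and 102 FPKM at 24 h, with overlapping libraries and a change of -0.08 (limma adjusted p = 0.763). TOMM70A, the receptor for carriers, changed by -0.26 (limma adjusted p = 0.279) and TOMM7, a small subunit, by -0.58 (limma adjusted p = 0.068).

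In the TIM23 complex 5 of 6 members fell. TIMM44, which ties the motor to the channel, stood at 54.3 and 65.0 FPKM at 0 h and at 34.6, 26.3 and 22.0 FPKM at 24 h, with no overlap (change -1.10, SE 0.22, limma adjusted p = 0.00138). TIMM50, the receptor of the complex, went from 75.8 ± 12.1 FPKM (SD, n = 2) to 38.8 ± 9.73 (SD, n = 3; change -0.97, limma adjusted p = 0.00472). The channel gene TIMM23 went from 186 ± 28.5 to 114 ± 30.4 FPKM (change -0.72, limma adjusted p = 0.0194). TIMM23 has a near-identical copy in the human genome, so its reads may be shared. TIMM21 and TIMM17B also fell, whereas TIMM17A, the alternative to TIMM17B in the channel, changed by -0.41 with overlapping libraries (limma adjusted p = 0.13). That contrast depends on the scale: with trends by transcript GC content and length removed, TIMM17A was called lower and TIMM17B was not.

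The motor and the presequence peptidase each split between partners. GRPEL1, the main nucleotide exchange factor of HSPA9, stood at 77.8 and 96.3 FPKM at 0 h and at 52.7, 39.8 and 30.6 FPKM at 24 h (change -1.09, SE 0.23, limma adjusted p = 0.00188). GRPEL2, its relative, stood at 5.39 and 4.75 FPKM and at 6.00, 4.76 and 4.10 FPKM, a change of -0.04 (limma adjusted p = 0.868). GRPEL1 was thus lower in every 24 h library and GRPEL2 was not. HSPA9 fell from 191 ± 2.30 to 120 ± 29.2 FPKM (change -0.70, limma adjusted p = 0.0143) and DNAJC19, a J protein of the motor, fell by 0.69 (limma adjusted p = 0.0272). The peptidase subunits PMPCA and PMPCB changed by -0.98 (limma adjusted p = 0.00482) and -0.06 (limma adjusted p = 0.821). PMPCB, the catalytic subunit, stood at 21.8 and 22.8 FPKM at 0 h and at 26.9, 21.6 and 16.9 FPKM at 24 h.

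All 7 members of the carrier route fell. TIMM10, a small chaperone that carries precursors between the membranes in a ring with TIMM9, stood at 202 and 241 FPKM at 0 h and at 118, 79.3 and 69.3 FPKM at 24 h (change -1.34, SE 0.26, limma adjusted p = 0.00111), which was the lowest estimate of the 36. TIMM22, the channel of this route, stood at 39.3 and 47.9 FPKM and at 28.2, 20.3 and 16.2 FPKM (change -1.01, SE 0.26, limma adjusted p = 0.00662). TIMM9, TIMM13, TIMM8A, TIMM8B and TIMM10B fell by between 0.69 and 0.91 on the log2 scale.

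The remaining routes moved likewise. CHCHD4, the oxidoreductase of the disulfide relay, stood at 27.6 and 31.1 FPKM at 0 h and at 18.7, 14.2 and 10.7 FPKM at 24 h (change -1.0, SE 0.20, limma adjusted p = 0.00159), and GFER, which re-oxidises it, fell by 0.77 (limma adjusted p = 0.0104). SAMM50, the pore that assembles barrel proteins, fell by 0.60 (limma adjusted p = 0.0413) and MTX1 by 0.72 (limma adjusted p = 0.0238), while MTX2 did not pass (-0.44, limma adjusted p = 0.106). Both prohibitins fell, PHB by 0.85 and PHB2 by 0.89, although PHB has 21 named pseudogenes in the annotation and its reads may be shared. The same limit holds for other members with named pseudogenes, among them DNAJC19 (9), TOMM22 (6), CHCHD4 (4), TOMM20 (4), GRPEL2 (3) and TIMM9 (3). TIMMDC1, a complex I assembly factor named for its TIM-like domain, changed by -0.26 (limma adjusted p = 0.32).

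The count at 24 h leaned on single libraries. Without the 0 h library numbered 2, which leaves 1 control library, 5 of the 28 remained: CHCHD4, TIMM10, TIMM21, TIMM44 and TOMM40; without the 24 h library numbered 2 the count was 15. Changes also ran with base composition: across the 36 members Pearson's r between the centred change and the GC content of the longest coding transcript was -0.58 (-0.39 over the 10405 tested genes with a transcript). With the GC and length trends removed in each library 30 members were lower and 0 higher at 24 h, against 34.5% and 33.3% of genes, and the median was -0.32. TIMM17B and MTX1 were not called lower at that step, while TIMM17A, MTX2, TOMM7 and TOMM70A were. TOMM20 and PMPCB then stood at 0.02 and 0.05. Mesenchymal markers summed to 672 and 801 FPKM in the lowest and highest 0 h library and to 579 and 897 FPKM at 24 h, with 0 of 7 tested markers lower and 2 higher, and adrenergic markers to 63.3 and 75.8 and to 32.9 and 50.7 FPKM, with 3 of 3 lower. The part of base composition or cell state in the import changes was not tested.

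Before 24 h no member was called on the spike-in scale. The 36 members gave 0 calls in either direction at 2, 4, 6, 8 and 16 h, while the share of all tested genes called lower was 0.0506%, 0.0758%, 7.54%, 3.83% and 3.04% and the share called higher 0%, 0.00843%, 3.17%, 3.92% and 5.13%. At an unadjusted limma p under 0.05 there were 0, 1, 9, 7 and 9 members. The share of all tested genes at that threshold was not counted. After centring each library on its median gene 2 members were lower and 3 higher at 4 h (13.6% and 13.5% of all tested genes), 11 and 6 at 6 h (24.1% and 27.1%), 14 and 3 at 8 h (23.1% and 24.1%), and 24 and 0 at 16 h (25.4% and 21.7%). The members' shares of lower calls were 5.56%, 30.6%, 38.9% and 66.7% at these times: below that of all genes at 4 h, close to it at 6 h and above it at 8 and 16 h.

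**Figure D2:**
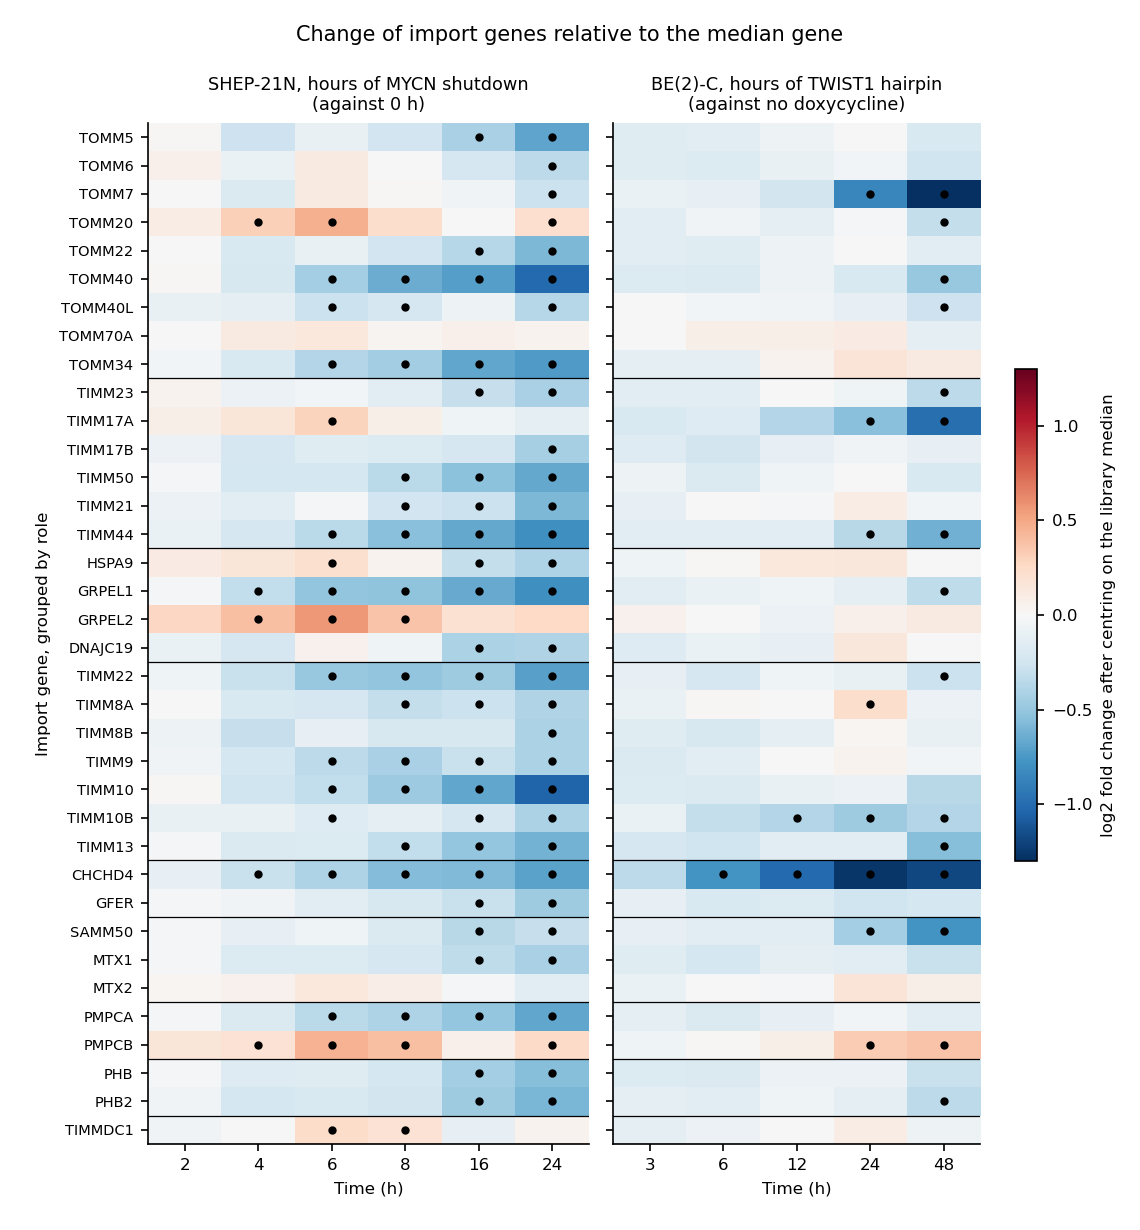
Log2 fold change of the 36 tested import genes after centring each library on its median gene (colour, blue lower, red higher), by role (rows between lines) and time (columns), against 0 h in SHEP-21N cells and against no doxycycline in BE(2)-C cells; a dot marks a limma adjusted p under 0.05 on that scale. In SHEP-21N cells lower calls go from 2 at 4 h to 29 at 24 h, and in BE(2)-C cells CHCHD4 is lower from 6 h on.

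The other scales gave the following counts, each read against all tested genes. At 2 h the members gave 0 calls on the unnormalised scale (0.345% of genes lower, 0.236% higher), after centring (0.27% and 0.059%) and with GC and length trends removed (1.44% and 1.15%). At 4 h unnormalised values gave 7 lower and 3 higher members (18.1% and 15.8% of all tested genes). At 6 h the same values gave 17 lower and 6 higher members (29.8% and 26.8% of all tested genes). At 8 h they gave 24 lower and 3 higher members (29.2% and 25% of all tested genes). At 16 h they gave 26 lower and 0 higher members (27.5% and 23.8% of all tested genes). At 24 h they gave 30 lower and 1 higher members (36.4% and 28.9% of all tested genes). With the GC and length trends removed there were 9 lower and 2 higher members (16.1% and 14.3% of all tested genes) at 4 h. At 6 h there were 12 lower and 5 higher members (25.6% and 24.3% of all tested genes). At 8 h there were 20 lower and 1 higher members (26.5% and 25.6% of all tested genes). At 16 h there were 26 lower and 0 higher members (28.6% and 28.6% of all tested genes). From 4 h on the share of members called lower was above that of all genes on both of these scales, by little at 4 h on the unnormalised one (19.4% of members), and the share called higher was below it.

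On the centred scale single members moved earlier, in both directions. CHCHD4 and GRPEL1 were the first called lower on that scale, by 0.29 and 0.32 at 4 h (limma adjusted p = 0.010 and 0.0083), ahead of TOMM40, TIMM22, TIMM44, TIMM10 and others at 6 h. Over the same hours GRPEL2, TOMM20 and PMPCB rose relative to the median gene: at 6 h by 0.57, 0.47 and 0.45 (limma adjusted p = 0.00099, 0.00086 and 3.3e-05). HSPA9, TIMM17A and TIMMDC1 rose by 0.21, 0.29 and 0.24 at 6 h. By 16 h 0 members were higher, and HSPA9 was lower by 0.31 (limma adjusted p = 0.0022). With the GC and length trends removed TOMM20, PMPCB and GRPEL2 were still called higher at 6 h, and HSPA9, TIMM17A and TIMMDC1 were not. GFER and MTX1 were also called higher at 6 h at that step, and GFER at 4 h. The order of falls depends on the scale. At 4 h CHCHD4 and GRPEL1 were among 7 lower members on unnormalised values, with TIMM44, and among 9 with those trends removed.

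Decline after 8 h was called on every scale but that of the spike-ins. Against 8 h the 24 h libraries gave 0 member calls on the spike-in scale (1.33% of all tested genes were lower and 0.228% higher). At an unadjusted limma p under 0.05 there were 27 of 36, and 33 calls when the 24 h library numbered 0 was left out. Shares of all tested genes are not given for these counts, so nothing about import genes is read from them. After centring 24 members were lower and 0 higher (16.1% and 12% of all tested genes), unnormalised values gave 22 lower and 0 higher members (19.2% and 12.9% of all tested genes), and removal of GC and length trends gave 19 lower and 0 higher members (22.2% and 20.8% of all tested genes). Among the 36 the lowest centred change was -0.57 for TIMM10 and the highest 0.01 for TIMM9.

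Promoters of members that parted ways are printed because MYCN is known to bind E-boxes. RefSeq windows of 300 bases (GRCh38.p14), from 250 before to 50 after the annotated start, were matched for 34 of the 37 genes. TIMM10 (chr11:57530705-57531004, minus strand) and TOMM40 (chr19:44891004-44891303, plus strand) had the lowest changes at 24 h, CHCHD4 (chr3:14124821-14125120, minus strand) fell in both experiments and TOMM20 (chr1:235128788-235129087, minus strand) did not pass at 24 h in SHEP-21N cells. Capitals mark CACGTG, the canonical E-box, or CACGCG, a variant of it, read on either strand.
TIMM10: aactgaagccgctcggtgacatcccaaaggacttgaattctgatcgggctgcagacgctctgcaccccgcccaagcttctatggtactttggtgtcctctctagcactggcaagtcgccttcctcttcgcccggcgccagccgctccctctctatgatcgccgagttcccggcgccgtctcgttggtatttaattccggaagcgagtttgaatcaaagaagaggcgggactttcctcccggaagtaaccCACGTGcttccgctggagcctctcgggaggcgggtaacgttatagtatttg
TOMM40: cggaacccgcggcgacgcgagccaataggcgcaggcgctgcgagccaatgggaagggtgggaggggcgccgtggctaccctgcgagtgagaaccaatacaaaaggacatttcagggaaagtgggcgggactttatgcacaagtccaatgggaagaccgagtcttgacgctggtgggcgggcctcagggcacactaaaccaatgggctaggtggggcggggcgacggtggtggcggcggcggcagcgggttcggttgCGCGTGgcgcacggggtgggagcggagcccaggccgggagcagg
CHCHD4: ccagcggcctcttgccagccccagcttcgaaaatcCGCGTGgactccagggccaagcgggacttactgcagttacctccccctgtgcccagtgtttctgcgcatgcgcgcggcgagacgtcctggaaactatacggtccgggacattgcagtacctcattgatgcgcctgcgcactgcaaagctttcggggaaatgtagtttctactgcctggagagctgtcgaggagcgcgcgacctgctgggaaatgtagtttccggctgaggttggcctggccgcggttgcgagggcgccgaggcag
TOMM20: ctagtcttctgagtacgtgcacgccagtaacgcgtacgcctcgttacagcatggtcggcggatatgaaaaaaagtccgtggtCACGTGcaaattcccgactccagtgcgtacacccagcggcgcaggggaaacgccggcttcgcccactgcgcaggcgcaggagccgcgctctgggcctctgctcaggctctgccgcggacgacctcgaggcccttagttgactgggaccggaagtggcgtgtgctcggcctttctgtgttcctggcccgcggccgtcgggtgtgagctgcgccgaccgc

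With the base before the start as -1 and the first transcribed base as 1, CACGTG begins at -1 in TIMM10 and at -168 in TOMM20, and CACGCG at 7 in TOMM40 and at -215 in CHCHD4. The canonical motif was present both in TIMM10 and in TOMM20. Over all windows searched, CACGTG was in 4 of 34 members (11.8%, HSPA9 and TIMM8A being the others) and in 7.43% of 27305 promoters, and CACGCG in 9 of 34 (26.5%) and in 11.4%. CCGGAAG, the core read by ETS factors such as GABPA, was in 14 of 34 (41.2%) and in 10.7% of promoters. The 27305 promoters are not limited to tested genes, so their shares are not those of genes expressed in these cells. All counts are matches of letters on both strands in windows of 1 length, no member held both E-box forms, and no binding was measured here. Nothing is drawn from them about either factor.

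Ratios between partner genes take both values from the same library. For 8 pairs in SHEP-21N cells they were compared between the 5 libraries at 0 and 2 h and the 6 at 16 and 24 h. The test was a two-sided exact permutation test, where the smallest p possible is 0.00433. Libraries of the 2 times joined on each side were treated as replicates, so each SD also holds differences between those times. GRPEL1 over GRPEL2 stood at 3.68 ± 0.23 early (SD, n = 5) and at 2.90 ± 0.16 late (SD, n = 6) on the log2 scale, a fall of 0.78 with no overlap (exact permutation adjusted p = 0.0069). TOMM40 over its relative TOMM40L fell by 0.71, from 4.17 ± 0.07 to 3.46 ± 0.06, and PMPCA over PMPCB by 0.64, also with no overlap and the same exact permutation adjusted p. TIMM9 over TIMM10, partners in 1 chaperone ring, rose by 0.54 from -2.52 ± 0.07 to -1.98 ± 0.18, and MTX1 over MTX2 fell by 0.27 (exact permutation adjusted p = 0.0069 for each). The ratios PHB over PHB2, TIMM8A over TIMM8B and TIMM17A over TIMM17B did not pass, at 0.02, -0.07 and 0.15 (exact permutation adjusted p = 0.303, 0.242 and 0.075).

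With the GC and length trends removed the SHEP-21N falls of GRPEL1 over GRPEL2, TOMM40 over TOMM40L and PMPCA over PMPCB were 0.55, 0.71 and 0.29, and the rise of TIMM9 over TIMM10 was 0.28. MTX1 over MTX2 was then 0.01 (exact permutation adjusted p = 0.861) and TIMM17A over TIMM17B turned to -0.20 (exact permutation adjusted p = 0.0115). Of the 5 calls, the metaxin ratio was the one lost at that step.

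Among other genes that receive, fold or dispose of imported proteins, some or all of each list fell at 24 h, beside the 32.4% of all tested genes that were lower. All 5 tested matrix chaperones were lower on the spike-in scale, among them TRAP1 (-1.28), DNAJA3 (-1.25) and HSPE1 (-1.19), the partner of the chaperonin HSPD1 (-0.65). Of 13 further processing and insertion genes 6 were lower and 0 higher; PAM16, a motor subunit outside the naming rule, changed by -1.45 and the peptidase MIPEP by -1.03. Of 10 inner membrane and matrix proteases 5 were lower, with LONP1 at -1.28 and CLPP at -1.11. Of 6 cristae junction genes 3 were lower. Among regulators of mitochondrial biogenesis 6 of 9 were lower, with PPRC1 at -1.40, ESRRA at -1.16 and PPARGC1B at -1.03, while NRF1 (-0.33, limma adjusted p = 0.22) and TFAM (-0.35, limma adjusted p = 0.131) did not pass. After centring, where 32.2% of all tested genes were lower and 29.6% higher, 5 of the chaperones, 6 of the processing and insertion genes, 7 of the proteases, 3 of the cristae genes and 6 of the regulators were lower, and 1 was higher in each list except the chaperones.

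In BE(2)-C cells with the TWIST1 hairpin, how far the import machinery stood below other genes at 48 h depended on the scale. On the spike-in scale all 36 were lower at 48 h, as were 93.3% of all tested genes, and all 36 were lower than at 12 h, as were 97.9%; 0 members were higher, beside 0.131% and 0.0962% of genes. Against 12 h unnormalised values gave 6 lower and 5 higher members (15.5% and 11.7% of all tested genes). Centring gave 7 lower and 1 higher members (17.2% and 24.6% of all tested genes), and removal of GC and length trends 14 lower and 1 higher members (30.1% and 26.9% of all tested genes). The median change at 48 h was -1.67 for members and -1.36 for all tested genes on the spike-in scale, and 32 of 36 members lay below the all-gene median. Spike-in totals in the unnormalised table ran from 57913 to 140361 FPKM at 48 h and from 21429 to 36863 FPKM without doxycycline. Unnormalised values gave 7 lower and 4 higher members at 48 h (21.3% and 18.1% of all tested genes), with a median of -0.04 beside 0.02 and 21 of 36 below the latter. After centring 14 were lower and 1 higher (21.9% and 30.6%), with a median of -0.25 beside 0.06 and 32 of 36 below. With the GC and length trends removed 19 were lower and 3 higher (32.6% and 30.6%), with a median of -0.16 beside -0.01 and 31 of 36 below. Lower calls among members were thus above the share of all genes on these last scales and not on the unnormalised one.

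**Figure D3:**
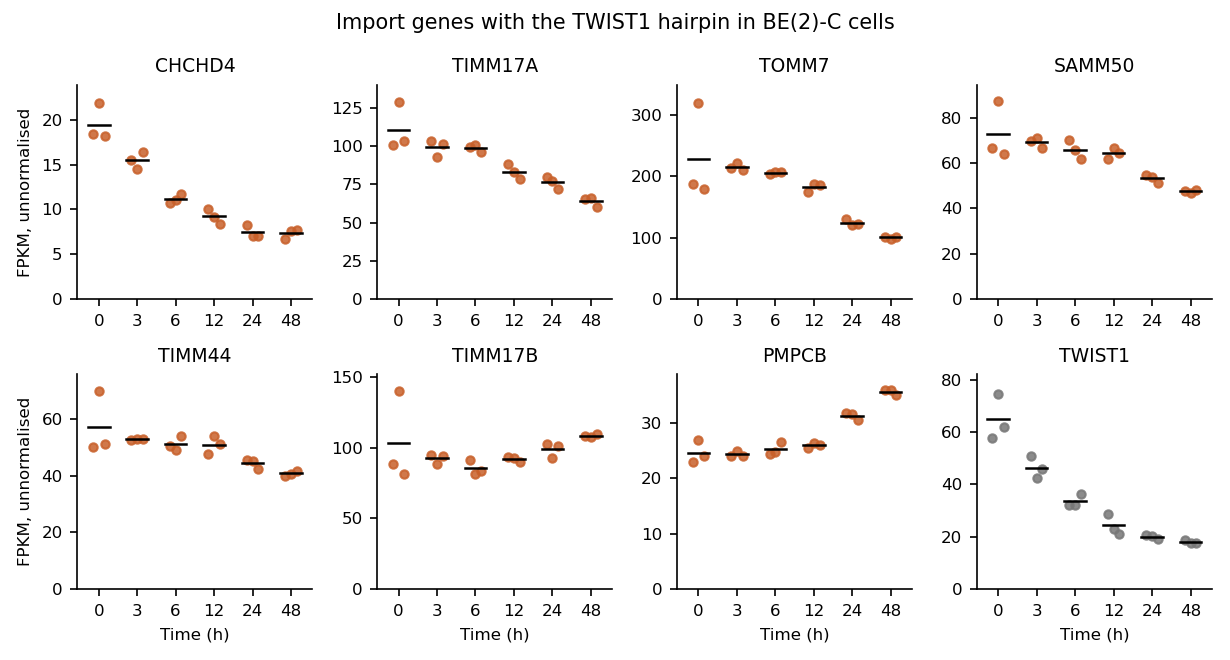
Unnormalised FPKM (vertical axis, from 0) of 7 import genes and of TWIST1 (grey) against hours of doxycycline in BE(2)-C cells, where 0 is no doxycycline; points are libraries and bars group means. CHCHD4 descends from 3 h on beside TWIST1, TIMM17A, TOMM7, SAMM50 and TIMM44 are lower at 24 and 48 h, and PMPCB is higher, with 1 library without doxycycline high in most panels.

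Few import genes moved in the first hours. On the spike-in scale 0 members were called at 3, 6 and 12 h, while 0.0175%, 0.0175% and 0.0262% of all tested genes were lower and 0.0175%, 0.0175% and 0.0175% higher. At 24 h 1 was lower and 0 higher (0.586% and 0.0175%). Unnormalised values gave 0 lower and 0 higher members (0.0175% and 0% of all tested genes) at 3 h. They gave 2 lower and 0 higher members (0.472% and 0.00875% of all tested genes) at 6 h, 3 lower and 0 higher members (3.33% and 0.752% of all tested genes) at 12 h and 6 lower and 3 higher members (13.6% and 9.55% of all tested genes) at 24 h. Centred values gave 0 lower and 0 higher members (0.0262% and 0% of all tested genes) at 3 h. They gave 1 lower and 0 higher members (0.385% and 0.00875% of all tested genes) at 6 h, 2 lower and 0 higher members (1.99% and 0.542% of all tested genes) at 12 h and 6 lower and 2 higher members (9.81% and 8% of all tested genes) at 24 h. Values without GC and length trends gave 0 lower and 0 higher members (0.059% and 0% of all tested genes) at 3 h. They gave 2 lower and 0 higher members (0.738% and 0% of all tested genes) at 6 h, 3 lower and 0 higher members (5.74% and 1.75% of all tested genes) at 12 h and 7 lower and 1 higher members (16.3% and 13.2% of all tested genes) at 24 h. The members behind the counts up to 12 h are CHCHD4, TIMM10B and, at 12 h, TIMM17A.

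CHCHD4 was called lower from 6 h on all scales but that of the spike-ins, where it was called lower at 24 and 48 h. Its unnormalised FPKM were 18.4, 21.8 and 18.1 without doxycycline, 15.6, 14.5 and 16.4 at 3 h, 10.8, 11.1 and 11.8 at 6 h, 10.1, 9.20 and 8.43 at 12 h, 8.23, 7.06 and 7.08 at 24 h, and 6.70, 7.57 and 7.76 at 48 h. From 3 h on every library was below every untreated library. The centred change was -0.34 at 3 h, which did not pass (limma adjusted p = 0.613), then -0.78 at 6 h, -1.01 at 12 h, -1.27 at 24 h (limma adjusted p = 1.1e-07) and -1.19 at 48 h (limma adjusted p = 1.1e-07). On the spike-in scale CHCHD4 was the 1 member of 36 called lower at 24 h (0.586% of all tested genes; change -1.52, SE 0.33, limma adjusted p = 0.0149), and the call was lost without any 1 of 5 of the 6 libraries compared, with an adjusted p of up to 0.138. TWIST1 over the same times stood at 57.9, 74.6 and 62.1 unnormalised FPKM, at 32.3, 32.2 and 36.2 at 6 h, and at 18.9, 17.7 and 17.7 at 48 h. CHCHD4 and TWIST1 thus moved down over the same hours; whether 1 depends on the other was not tested.

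TIMM10B, an escort chaperone of the carrier route, was called lower from 6 h on unnormalised values and with GC and length trends removed, as was CHCHD4, and from 12 h after centring. Its unnormalised FPKM were 9.67, 10.5 and 9.78 without doxycycline, 6.93, 7.69 and 7.58 at 12 h, and 6.52, 6.54 and 6.72 at 48 h. No library at 12 or 48 h reached an untreated one, and the centred change was -0.38 at both times (limma adjusted p = 0.0032 and 0.00027). The other small chaperones gave 0 lower calls at 12 and 24 h on that scale.

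TIMM17A, TOMM7, SAMM50 and TIMM44 were lower from 24 h on the centred scale. TIMM17A stood at 100, 129 and 103 unnormalised FPKM without doxycycline and at 65.3, 66.2 and 60.0 FPKM at 48 h, with no overlap (centred change -0.98, limma adjusted p = 1.7e-06). TOMM7 stood at 188, 319 and 179 FPKM and at 102, 98.8 and 102 FPKM (centred change -1.35, limma adjusted p = 1.4e-05). The library at 319 FPKM is the one that stands apart, and the 48 h libraries were also below both of the others.

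SAMM50 stood at 66.7, 87.3 and 64.0 FPKM without doxycycline and at 47.9, 46.8 and 48.0 FPKM at 48 h (centred change -0.77, limma adjusted p = 5.7e-05), and TIMM44 at 50.0, 70.0 and 51.2 FPKM and at 39.9, 40.7 and 41.8 FPKM (centred change -0.63, limma adjusted p = 0.00043). Both groups were apart in every library. At 24 h centring gave 6 lower members, these 4 with CHCHD4 and TIMM10B, and 2 higher, PMPCB and TIMM8A (9.81% and 8% of all tested genes). TOMM40L completed the 7 called lower on every scale at 48 h, with a centred change of -0.27 (limma adjusted p = 0.0192).

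PMPCB was called higher at 24 and 48 h on unnormalised and centred values. With the GC and length trends removed it was called higher at 48 h and not at 24 h. Its unnormalised FPKM were 22.9, 26.9 and 24.0 without doxycycline and 35.8, 35.8 and 34.9 at 48 h, and its change was 0.52 unnormalised (limma adjusted p = 2.0e-06) and 0.37 centred (limma adjusted p = 0.0008). On the spike-in scale, where nearly every gene was lower, PMPCB was at -1.05 (limma adjusted p = 0.00666). HSPA9, MTX2 and TOMM34 were higher on the unnormalised scale alone among the deposited scales and centring.

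Members that led in SHEP-21N cells did not all lead here. TIMM10 stood at 65.8, 103 and 60.6 unnormalised FPKM without doxycycline and at 65.2, 72.4 and 62.1 FPKM at 48 h, with overlapping libraries (centred change -0.36, limma adjusted p = 0.068). It was called lower at 48 h with the GC and length trends removed, so its call depends on the scale. TOMM40 stood at 161, 240 and 164 FPKM and at 156, 157 and 150 FPKM (centred change -0.49, limma adjusted p = 0.0056), and TOMM20 had a centred change of -0.31 (limma adjusted p = 0.0027). The 2 experiments differ in the targeted gene and how it was lowered, in cell line, agent dose and hours, and the difference between them was not tested.

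Partner ratios in BE(2)-C cells, 6 libraries without doxycycline or at 3 h against 6 at 24 and 48 h, gave 5 of 8 pairs past the threshold. Libraries of the groups joined on each side were again treated as replicates. TIMM17A over TIMM17B fell by 0.67 on the log2 scale, from 0.11 ± 0.15 (SD, n = 6) to -0.55 ± 0.22 (SD, n = 6), with no overlap (two-sided exact permutation adjusted p = 0.0087, the smallest unadjusted p possible being 0.00216). The 2 genes encode alternative forms of 1 channel subunit. PMPCA over PMPCB fell by 0.40 with no overlap (exact permutation adjusted p = 0.0087), as in SHEP-21N cells, where it fell by 0.64. MTX1 over MTX2 fell by 0.30 with overlap (exact permutation adjusted p = 0.0173), and PHB over PHB2 and TIMM9 over TIMM10 rose by 0.08 and 0.22 with overlap (exact permutation adjusted p = 0.045 for both), 2 calls not kept once the GC and length trends were removed. GRPEL1 over GRPEL2 and TOMM40 over TOMM40L, which fell in SHEP-21N cells, did not pass here (-0.21 and -0.07, exact permutation adjusted p = 0.268 and 0.485).

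Outside the named members, the matrix chaperones, proteases and insertion genes were all lower at 48 h on the spike-in scale (5 of 5, 10 of 10 and 12 of 12 tested), near the share of all genes. After centring 1, 5 and 1 of them were lower and 0, 2 and 5 higher, beside 21.9% and 30.6% of all tested genes. CLPP, a matrix protease subunit, had a centred change of -0.97 (limma adjusted p = 7.2e-05) and LONP1 of -0.36 (limma adjusted p = 0.0216).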

How the data were processed

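RNA from counted cells, with ERCC spike-in RNA added at lysis, was selected for poly(A) and made into stranded libraries, per the labels' protocols. The authors deposited FPKM per gene in 2 forms, unnormalised and rescaled to the spike-ins (HISAT, Cufflinks 2.0.0, hg19, per the submitters' processing notes); the sources used here do not give the rescaling method. Of 49 listed samples, 38 have columns; 11, BE(2)-C cells with DMSO or JQ1 at 1 µM, are not analysed here. Each column went to the group its name gives, and its number only tells libraries apart. No label says that libraries of a group come from separate cultures, so p-values measure only the spread between these libraries. FPKM hold no read number, so no counting error can be given. All comparisons of an experiment share its control libraries.

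Genes with a mean of at least 1 unnormalised FPKM were tested, spike-ins left out. limma 3.58.1 in R 4.3.3 fitted log2(rescaled FPKM + 1) with 1 mean per time and an intensity trend, so fold changes of low genes are understated. Adjusted p is the Benjamini-Hochberg value over all tested genes, and a call is one under 0.05. Values ± are SD over libraries. Partner ratios were compared by exact permutation in Python 3.11.15 with scipy 1.17.1. Alternatives were unnormalised values, centring on the library median, a pseudocount of 0.1, no filter, 2 groups alone, a replicate block, each library left out and, added after a relation to base composition was seen, removal of GC and length trends (longest GENCODE coding transcript). On simulated centred values the model recovered, in the comparison of SHEP-21N cells at 24 h, 70.2% of log2 changes of 0.5 and 100% of changes of 1. In that of BE(2)-C cells at 48 h it recovered 64.1% and 96.7%. For log2 changes of 2 the shares were 98.6% and 96.1%. Centring removes differences in scale between libraries, so these shares do not describe the fit on the spike-in scale.

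Any member may be named; full values went to up to 8 called members with the largest change at SHEP-21N 24 h and BE(2)-C 48 h, up to 3 called earlier, the partner pairs and 6 central members. The members and gene lists were chosen with earlier results of these data known.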

Additional observations from a re-analysis of the deposited data

Results flagged for a closer look

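One result was singled out because the change from the untreated cells differed between 2 times in BE(2)-C cells, by a direct test of 48 h against 12 h. On the spike-in scale 36 of 36 import genes were lower at 48 h than at 12 h, beside 97.9% of all tested genes. Unnormalised values gave 6 lower and 5 higher members (15.5% and 11.7% of all tested genes), centring 7 and 1 (17.2% and 24.6%), and removal of GC and length trends 14 and 1 (30.1% and 26.9%). The spike-in totals of the unnormalised table were higher at 48 h than at 12 h in every library, and their part in the result was not tested.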

How the results depend on the processing

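Counts of import genes depended on the scale; the cause was not tested. In SHEP-21N cells, where the spike-in scale gave 0 lower members, unnormalised, centred and GC-and-length-removed values gave 7, 2 and 9 at 4 h, 17, 11 and 12 at 6 h, 24, 14 and 20 at 8 h, 26, 24 and 26 at 16 h, and 22, 24 and 19 for 24 h against 8 h. Higher members, 0 on the spike-in scale, were 3, 3 and 2 at 4 h, 6, 6 and 5 at 6 h and 3, 3 and 1 at 8 h, and 1 and 2 at 24 h on the unnormalised and centred scales. With the 2 groups fitted alone 8, 5 and 14 members were lower at 6, 8 and 24 h. Shares of all tested genes are not given for that setting, so nothing about import genes is read from these counts. In BE(2)-C cells the same 3 settings gave 2, 1 and 2 lower members at 6 h, 3, 2 and 3 at 12 h, 6, 6 and 7 at 24 h, 7, 14 and 19 at 48 h, and 6, 7 and 14 for 48 h against 12 h. Higher members were 3, 2 and 1 at 24 h, 4, 1 and 3 at 48 h, and 5, 1 and 1 for 48 h against 12 h. At 24 h the 1 lower member became 0 with no filter and 2 with the 2 groups alone, again without shares of all tested genes. Partner ratios past the threshold in BE(2)-C cells went from 5 to 3 with GC and length trends removed.

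With a replicate block 26 members in place of 28 were lower in SHEP-21N cells at 24 h. In BE(2)-C cells 2 in place of 1 were lower at 24 h, and other counts did not change. Shares of all tested genes with the block are not given here. Deviations of same-numbered libraries from their group means had a median r of -0.02 in SHEP-21N and 0.01 in BE(2)-C cells, and at most 0.18 and 0.24. With 2 or 3 libraries in a group, these values cannot exclude that the numbers pair the libraries.

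With each library left out in turn the lower members ranged from 0 to 2 at 6 h, 0 to 1 at 8 h, 0 to 4 at 16 h, 5 to 31 at 24 h and 0 to 33 for 24 h against 8 h in SHEP-21N cells, and from 0 to 1 at 24 h and 35 to 36 at 48 h in BE(2)-C cells. Ratios past the threshold ranged from 5 to 6 and from 3 to 5. For the member counts with a library left out, shares of all tested genes are not given here.

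Signs turned as follows. Unnormalised, at 24 h in SHEP-21N cells GRPEL2 was 0.24, PMPCB 0.22, TIMMDC1 0.018, TOMM20 0.195 and TOMM70A 0.020. Centred, they were 0.26, 0.245, 0.041, 0.22 and 0.042. With GC and length trends removed PMPCB was 0.055 and TOMM20 0.024. Leaving out each library in turn, GRPEL2 ranged from -0.161 to 0.068, PMPCB from -0.213 to 0.106 and TOMM20 from -0.234 to 0.055, the highest values being those lacking the 24 h library numbered 2; GRPEL2 was also 0.037 lacking the 0 h library numbered 1. Unnormalised, at 48 h in BE(2)-C cells DNAJC19 was 0.15, GRPEL2 0.029, HSPA9 0.246, MTX2 0.22, PMPCA 0.067, PMPCB 0.52, TIMM17B 0.11, TIMM21 0.060, TIMM8B 0.14, TIMM9 0.16, TIMMDC1 0.15, TOMM22 0.086, TOMM34 0.32, TOMM5 0.037 and TOMM70A 0.075. Centred, DNAJC19 was 0.0036, GRPEL2 0.12, MTX2 0.072, PMPCB 0.37 and TOMM34 0.11. With GC and length trends removed MTX2 was 0.057, PMPCA 0.00013, PMPCB 0.25, TIMM17B 0.11 and TOMM34 0.20. Of ratios, that removal turned TIMM17A over TIMM17B to -0.20, PHB over PHB2 to -0.016 and MTX1 over MTX2 to 0.0083 in SHEP-21N cells. In BE(2)-C cells TIMM8A over TIMM8B was -0.010 unnormalised and ranged from -0.0093, lacking the untreated library numbered 1, to 0.127, and TOMM40 over TOMM40L was 0.056 unnormalised and 0.0081 with a pseudocount of 0.1.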
